A study of Diuraphis noxia with 6 samples.

Results

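The de novo transcriptome assembly of *D. noxia* holds 90781 transcripts under 60140 gene identifiers, and the 150 gene identifiers with the most transcripts are described here. Transcripts were counted per gene identifier, genes were ranked by that count, and ties were broken by identifier in alphabetical order. The 150 genes carry 2933 transcripts, called isoforms here, against 49517 genes with 1 transcript and 10623 genes with at least 2. Their number of isoforms ran between 15 and 42, with a median of 18. The rule used no measured level, but 36 genes tied at 15 isoforms, of which the alphabet placed 8 inside and 28 outside. The ranks next to the limit held TRINITY_DN123_c0_g1 (mean of 39.8 TPM) and TRINITY_DN1244_c0_g1 (26.0 TPM) inside, and TRINITY_DN1280_c0_g1 (18.8 TPM) and TRINITY_DN1389_c0_g1 (87.2 TPM) outside.

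Russian wheat aphid, *Diuraphis noxia*, is a pest of wheat and barley, and its biotypes are told apart by which resistant wheat they can feed on. RWA-SAM was set against RWA-SA1, a genealogically linked biotype that feeds on fewer of them. Each biotype was represented by 3 libraries (replicates 1, 2 and 3), each prepared with a stranded mRNA kit on RNA of 100 pooled whole aphids of mixed stages, reared on the plants each biotype prefers. Where these plants differ, biotype and rearing plant cannot be told apart in any comparison below. Neither biotype received a treatment or carries an engineered allele, and no source states whether replicates stem from separate colonies. The p-values therefore cover the spread among these pools, which may be technical.

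An assembler that works without a genome joins overlapping reads into a graph and reports each well supported path through it as an isoform of the gene. Such isoforms can stem from alternative splicing, from alternative start or end sites, from alleles, from merged gene copies or from unspliced RNA, and short reads leave many of them nearly alike over most of their length. RSEM divides the reads that several isoforms share among them by their estimated abundance, so the level of an isoform is an estimate that becomes less certain the more isoforms share its sequence. Alternative splicing lets a gene encode several proteins and is widespread in insects. The identifiers carry no gene names here, so the genes are described by structure and level, and neither roles nor sequences are given.

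Library totals of expected counts were 35934486, 32294116 and 40181963 in RWA-SAM replicates 1, 2 and 3, and 36714790, 43501933 and 47619238 in RWA-SA1 replicates 1, 2 and 3. The 150 genes took 2.54% to 2.60% of these counts in the RWA-SAM libraries and 2.67% to 2.74% in the RWA-SA1 libraries. RWA-SA1 replicate 1 stood apart from its biotype. Over all assembly genes its scaled log2 counts correlated with the RWA-SAM libraries at 0.992 to 0.995 and with the other RWA-SA1 libraries at 0.989 to 0.990 (Pearson, across genes, which are not independent replicates). RWA-SA1 replicates 2 and 3 correlated with each other at 0.997. The results that rest on this library are therefore given with and without it. It was singled out after these values were seen, and it is the RWA-SA1 library nearest to RWA-SAM. Leaving it out thus tends to widen the difference between the biotypes and to narrow the spread of RWA-SA1. Calls and a lack of overlap without it are therefore descriptions and not separate support. In whole aphids, fewer cells of a type and less RNA per cell cannot be told apart.

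The 150 genes were well expressed and long. The median of their mean level, as the TPM (a relative level corrected for isoform length) summed over the isoforms of a gene, was 50.8 TPM, against 47.4 TPM in the 150 genes next in rank and 11.8 TPM in all genes with at least 2 isoforms. Summed TPM reached 10 in every library in 137 of the 150 genes, and 35 averaged 100 TPM or more. The median length of the longest isoform was 3862.5 bases, against 3290.5 bases in the next 150 genes and 1690 bases in all genes with at least 2 isoforms. Across the 10623 genes with at least 2 isoforms, the number of isoforms went with the level (Spearman's rho 0.41) and with the length of the longest isoform (rho 0.46), as descriptions over genes that share the same 6 libraries. Within the 150 genes the relation to the level was weaker (rho 0.17). In 100 of the 150 genes the isoform numbers in the identifiers run past the number of isoforms present, with 394 numbers skipped in all.

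Mean levels over the 6 libraries ran between 3.47 and 1916 TPM, and values of a biotype are listed in the order of replicates 1, 2 and 3. TRINITY_DN2747_c0_g1, with 21 isoforms, was the most abundant, at 1940, 1878 and 2026 TPM in RWA-SAM and 1900, 1900 and 1852 TPM in RWA-SA1, so the biotypes overlapped. It was followed by TRINITY_DN843_c1_g1, described below, and by TRINITY_DN300_c0_g1 (26 isoforms) at 1175, 1132 and 1158 TPM in RWA-SAM and 1204, 1299 and 1300 TPM in RWA-SA1. TRINITY_DN83_c0_g1 (23 isoforms) was at 869, 881 and 854 TPM in RWA-SAM and at 991, 1112 and 991 TPM in RWA-SA1. TRINITY_DN173_c1_g1 (18 isoforms) was at 665, 667 and 663 TPM in RWA-SAM and at 687, 923 and 918 TPM in RWA-SA1. In these 3 genes every RWA-SA1 library was above every RWA-SAM library, but none passed the gene-level test with all libraries (adjusted p = 0.0927 for TRINITY_DN300_c0_g1, 0.0621 for TRINITY_DN83_c0_g1 and 0.0802 for TRINITY_DN173_c1_g1). Without RWA-SA1 replicate 1 all 3 passed, with adjusted p-values of 0.00122 for TRINITY_DN300_c0_g1, 0.00114 for TRINITY_DN83_c0_g1 and 0.000267 for TRINITY_DN173_c1_g1. Without that library 50.3% of all genes tested passed, and 67.1% of the tested genes among the 150. At the other end, TRINITY_DN4730_c0_g1 (18 isoforms) was at 3.95, 2.84 and 3.23 TPM in RWA-SAM and 3.59, 3.38 and 3.83 TPM in RWA-SA1, and none of its isoforms reached 1 TPM in any library.

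A further gene, TRINITY_DN1456_c0_g1 (19 isoforms), was counted in a lone library. It had 80.0 TPM in RWA-SAM replicate 2 and was at 0 in the other 5 libraries. In that library 14 of its isoforms reached 1 TPM. It was left out of the per-gene summaries below, which need a summed TPM of 1 or more in every library and cover all of the 150 genes but this one, called the expressed genes.

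Fewer than 1 in 2 of the assembled isoforms were expressed at 1 TPM or more in any library. Of the 2933 isoforms, 1368, 1341 and 1381 reached 1 TPM in RWA-SAM (46.6%, 45.7% and 47.1%), against 1401, 1243 and 1256 in the RWA-SA1 libraries (47.8%, 42.4% and 42.8%). The means were 1363 ± 20.4 isoforms in RWA-SAM and 1300.0 ± 87.7 isoforms in RWA-SA1 (SD, n = 3 each). RWA-SA1 replicate 1 had the most of all libraries and RWA-SA1 replicates 2 and 3 the fewest. The difference of the means, 63.3 isoforms, was smaller than the spread between the RWA-SA1 libraries, and it was 113.8 isoforms without RWA-SA1 replicate 1, when every RWA-SAM library was above both others. At a minimum of 0.1 TPM the difference was -2 isoforms and at 5 TPM it was -7.33 isoforms.

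RWA-SA1 replicate 1 was again highest and RWA-SA1 replicates 2 and 3 lowest in the next 150 genes, while over all transcripts RWA-SA1 replicate 1 lay between RWA-SAM and the other RWA-SA1 libraries. In the next 150 genes, 51.4%, 51.4% and 53.1% of isoforms reached 1 TPM in RWA-SAM and 53.4%, 47.2% and 48.0% in the RWA-SA1 libraries. Over all 90781 transcripts the shares were 38.8%, 40.8% and 39.7% in the RWA-SAM libraries and 36.9%, 30.4% and 30.3% in the RWA-SA1 libraries. The median expressed gene had 9, 9 and 9 isoforms at 1 TPM in RWA-SAM and 9, 8 and 9 in the RWA-SA1 libraries. The share of a gene's isoforms at 1 TPM, averaged over the 6 libraries, had a median of 46.7% and reached 88.0% in TRINITY_DN120_c0_g1.

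**Figure D1:**
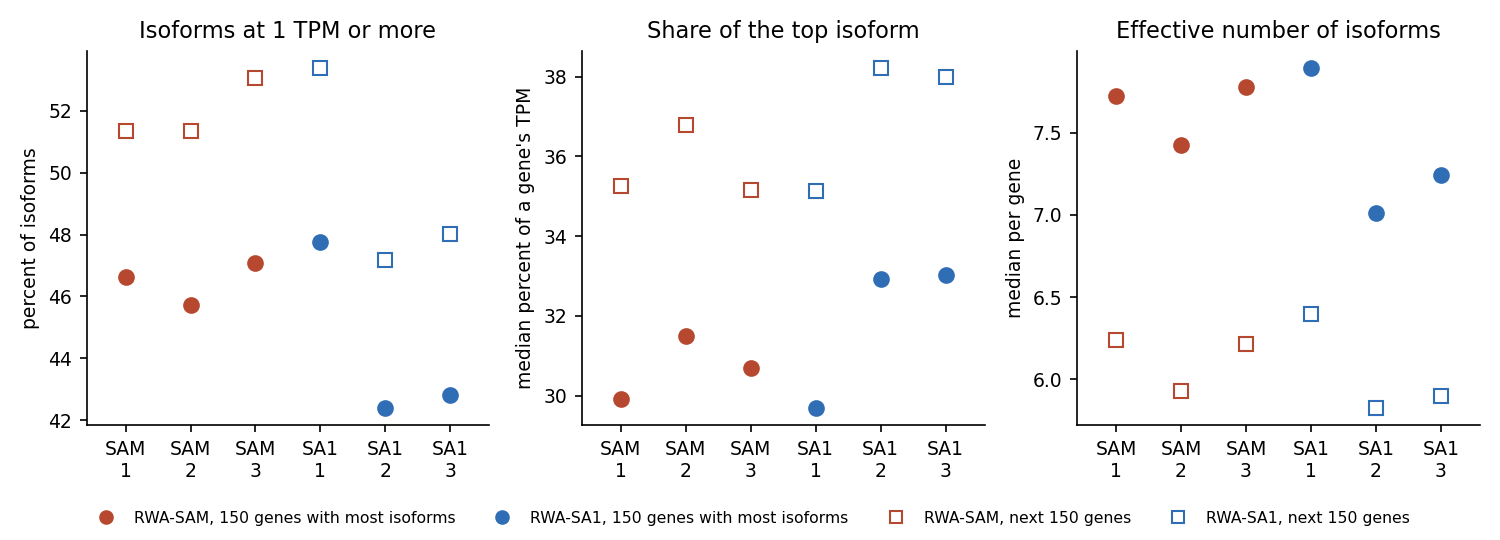
Values of each library for the 150 genes with the most isoforms (filled circles) and the 150 genes next in rank (open squares), RWA-SAM in red and RWA-SA1 in blue. The panels show the percent of isoforms at 1 TPM or more, the median over genes of the top isoform's percent of the gene's TPM, and the median effective number of isoforms. The vertical axes do not start at 0. RWA-SA1 replicate 1 lies at or beyond the outermost RWA-SAM library in all 3 panels of the 150 genes.

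Over the 6 libraries, 771 of the 2933 isoforms (26.3%) were at 1 TPM or more in every library, 1191 (40.6%) in 1 to 5 libraries and 971 (33.1%) in none. An expected count of 0 in every library was found for 124 isoforms (4.23%), and a further 1016 (34.6%) were at 0 in some libraries only. At 0 were 526, 533 and 468 isoforms in the RWA-SAM libraries and 480, 522 and 471 in the RWA-SA1 libraries, which is 16.0% to 18.2% and 16.1% to 17.8% of the isoforms. An estimate of 0 for an isoform whose neighbours in the same gene were counted says that no read was assigned to it, not that it is absent.

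Isoforms that reached 1 TPM in every library of a biotype and in no library of the other were few. There were 36 such isoforms for RWA-SAM (1.23%, against 1.08% of all transcripts) and 32 for RWA-SA1 (1.09%, against 0.306% of all transcripts). Without RWA-SA1 replicate 1 there were 123 for RWA-SAM (4.19%, against 3.25% of all transcripts) and 60 for RWA-SA1 (2.05%, against 0.796%). Of the 36 isoforms for RWA-SAM with all libraries, 3 had no counts at all in RWA-SA1, against 43 of all 90781 transcripts. They were isoform i18 of TRINITY_DN2086_c0_g1 (1.46, 1.15 and 1.68 TPM in RWA-SAM), isoform i15 of TRINITY_DN658_c0_g1 (1.45, 1.65 and 1.85 TPM) and isoform i9 of TRINITY_DN812_c1_g1 (1.19, 2.92 and 2.83 TPM). The reverse was seen in isoform i13 of TRINITY_DN5136_c1_g1, at 0 in the RWA-SAM libraries and at 1.62, 1.44 and 1.02 TPM in RWA-SA1. Over all transcripts the reverse was seen in 23. These 4 isoforms were named after their values were seen, and none of the 2189 isoforms of the 150 genes that could be tested passed the threshold in the isoform-level test described below.

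The most abundant isoform of a gene, the top isoform, rarely held most of it. Its median share of a gene's TPM over the expressed genes was 29.9%, 31.5% and 30.7% in the RWA-SAM libraries and 29.7%, 32.9% and 33.0% in the RWA-SA1 libraries. The means were 30.7% ± 0.785 in RWA-SAM and 31.9% ± 1.90 in RWA-SA1 (SD, n = 3 each), so that the difference of -1.18 percentage points lay within the spread of RWA-SA1, and it was -2.27 percentage points without RWA-SA1 replicate 1, when the biotypes no longer overlapped. Averaged over the 6 libraries, the share ran between 12.9% and 82.8%, with quartiles of 26.0% and 41.5%. In 19 of the expressed genes it was 50% or more, and in 9 it was under 20%. The next 150 genes had a median of 36.2% and all 7342 genes with at least 2 isoforms and enough expression a median of 69.3%.

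The effective number of isoforms, the exponential of the Shannon entropy of the TPM shares, equals the number of assembled isoforms when all are equally abundant and 1 when a gene has a lone expressed isoform. Its median over the expressed genes was 7.72, 7.42 and 7.78 in the RWA-SAM libraries and 7.89, 7.01 and 7.25 in the RWA-SA1 libraries. The means were 7.64 ± 0.192 in RWA-SAM and 7.38 ± 0.456 in RWA-SA1 (SD, n = 3 each). The highest library was again RWA-SA1 replicate 1, and the difference of 0.258 was smaller than the spread of RWA-SA1, with 0.512 and no overlap of the biotypes without that library. Per gene, the mean effective number ran between 2.29 and 18.5, with quartiles of 5.94 and 9.35. It was 10 or more in 25 genes and under 4 in 12 genes.

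A gene cannot have more effective isoforms than assembled ones, so part of the distance to other genes is set by the rule itself. Median effective numbers were 1.42 in other genes with 2 isoforms and 7.11 in other genes with 15 isoforms. Within the expressed genes, the 10 genes of highest rank had a median of 9.74, the next 40 a median of 8.24 and the last 100 a median of 7.27. Spearman's rho between the number of isoforms and the effective number was 0.32 over the expressed genes and 0.80 over all 7342 genes, as a description. The effective number was lower in the more abundant of the expressed genes (rho -0.38 with mean TPM). Between 3 and 19 isoforms, with a median of 9, were needed to reach 90% of a gene's TPM.

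**Figure D2:**
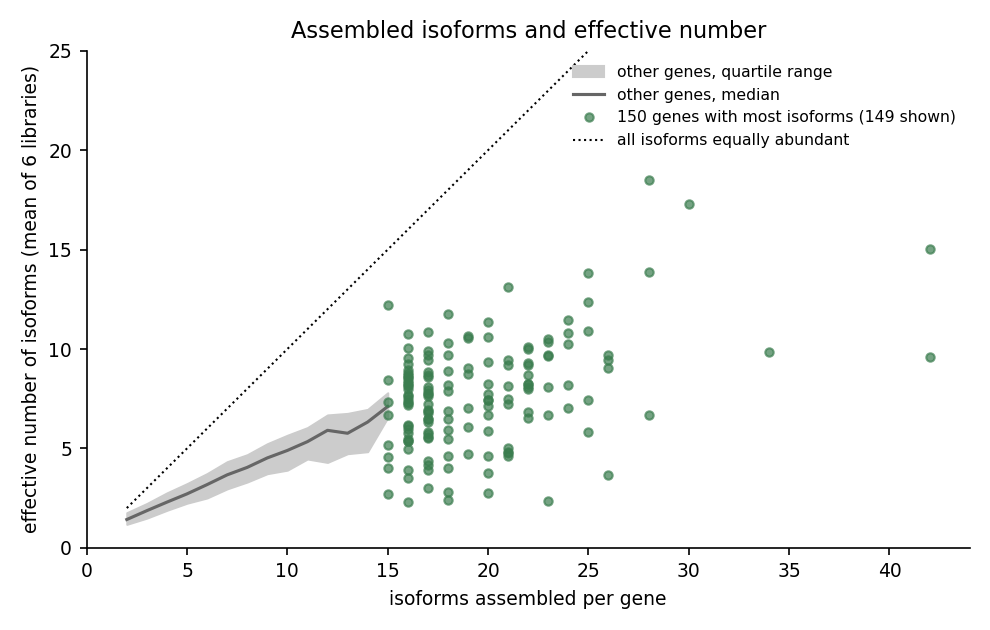
Mean effective number of isoforms over the 6 libraries against the number of isoforms assembled, for the 150 genes less TRINITY_DN1456_c0_g1 (points) and for other genes with at least 2 isoforms (line, median, and band, quartiles). The dotted line marks equal abundance of all isoforms. The points lie between 2.29 and 18.5, all below the dotted line.

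The top isoform was seldom the longest of its gene. By TPM it was the longest isoform in 0 of the expressed genes, in 2.67% of the next 150 genes and in 30.4% of all genes with at least 2 isoforms. By expected counts, which rise with length, it was the longest in 2 of the expressed genes (1.34%), against 4.67% and 34.5%. In 106 of the expressed genes (71.1%) the top isoform was shorter than the median isoform of its gene, against 64.0% of the next 150 genes and 44.5% of all genes with at least 2 isoforms. The median top isoform had 2310 bases, 68.0% of the length of the longest isoform. With more isoforms in a gene, any given isoform is less often the longest, so these shares are descriptions without a test.

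TRINITY_DN1144_c0_g1 and TRINITY_DN785_c0_g1 had the most isoforms, with 42 each, and divided their output differently. In TRINITY_DN1144_c0_g1 the effective number was 18.9, 14.4 and 18.6 in the RWA-SAM libraries and 13.3, 9.28 and 15.5 in the RWA-SA1 libraries, at summed levels of 36.4, 31.1 and 33.0 TPM against 36.3, 32.5 and 27.0 TPM. Its top isoform was i23 (1127 bases) in all RWA-SAM libraries and in RWA-SA1 replicate 1, and i15 (3328 bases) in the other RWA-SA1 libraries. In TRINITY_DN785_c0_g1, isoform i52 of 1439 bases led in all 6 libraries, with 45.8%, 42.0% and 44.5% of the gene's TPM in RWA-SAM and 40.6%, 43.9% and 40.6% in the RWA-SA1 libraries. Isoforms at 1 TPM or more in that gene numbered 10, 10 and 9 in the RWA-SAM libraries and 6, 5 and 7 in the RWA-SA1 libraries, without overlap. Its summed TPM overlapped between the biotypes.

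Other genes of high rank showed the same range of forms. TRINITY_DN960_c0_g1 (34 isoforms) holds the longest isoform of the 150 genes, at 18596 bases, and its leading isoforms were i14 (11808 bases), i4 (11841 bases) and i35 (11835 bases). Isoform i35 took 17.2%, 0.0358% and 11.6% of the gene's TPM in RWA-SAM and 13.4%, 24.9% and 21.6% in the RWA-SA1 libraries. The share in RWA-SAM replicate 2 was thus far below those of the other 5 libraries, and the biotypes overlapped. TRINITY_DN1131_c0_g1 (28 isoforms) had 5 different top isoforms in the 6 libraries, none above 17.7% of its TPM, and its isoform i6 held 9.81%, 9.66% and 0% in the RWA-SAM libraries and 15.3%, 12.8% and 11.1% in the RWA-SA1 libraries. TRINITY_DN11472_c1_g1 (26 isoforms), at 8.71, 10.2 and 11.1 TPM in RWA-SAM and 9.30, 5.43 and 7.18 TPM in RWA-SA1, likewise had 5 different top isoforms, each at 16.8% to 33.1%. TRINITY_DN4446_c0_g1 (28 isoforms) kept the same top isoform, i15, whose share was 42.9%, 46.0% and 42.5% in the RWA-SAM libraries and 50.7%, 50.7% and 55.2% in the RWA-SA1 libraries, without overlap.

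The genes with the highest effective numbers were TRINITY_DN273_c0_g1, TRINITY_DN255_c0_g1, TRINITY_DN1144_c0_g1 and TRINITY_DN1131_c0_g1. TRINITY_DN273_c0_g1 (28 isoforms) had effective numbers of 17.1, 19.9 and 13.7 in the RWA-SAM libraries and 20.3, 19.8 and 20.3 in the RWA-SA1 libraries. Its isoforms at 1 TPM or more, a number that also depends on the level of the gene, were 10, 14 and 12 in the RWA-SAM libraries. In the RWA-SA1 libraries they were 17, 16 and 19. The gene as a whole was lower in RWA-SAM, at 29.1, 32.5 and 34.6 TPM against 41.6, 46.3 and 46.4 TPM (log2 fold change -0.62, SE 0.12, edgeR adjusted p = 0.0363). TRINITY_DN255_c0_g1 (30 isoforms) had 20, 20 and 21 isoforms at 1 TPM or more in the RWA-SAM libraries and 22, 17 and 17 in the RWA-SA1 libraries. Its isoform i22 held 17.0%, 17.4% and 16.5% of the gene in the RWA-SAM libraries and 11.3%, 8.44% and 9.09% in the RWA-SA1 libraries, while the summed level overlapped between the biotypes. The usage of its isoforms passed the test (adjusted p = 0.0105).

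The genes most dominated by 1 isoform were TRINITY_DN843_c1_g1, TRINITY_DN2544_c0_g1, TRINITY_DN160_c0_g1 and TRINITY_DN1184_c0_g1. TRINITY_DN2544_c0_g1 has 23 isoforms, of which i1 held 81.8%, 82.4% and 83.3% of its TPM in RWA-SAM and 84.7%, 83.5% and 81.4% in the RWA-SA1 libraries. TRINITY_DN160_c0_g1 has 18 isoforms, and i9 held 80.6%, 82.5% and 78.6% in the RWA-SAM libraries and 81.4%, 86.8% and 86.8% in the RWA-SA1 libraries. In both genes the biotypes overlapped. In TRINITY_DN1184_c0_g1 the top isoform, i6, has 704 bases, beside isoforms with a median length of 16097 bases, and it held 75.7%, 76.3% and 74.5% in the RWA-SAM libraries and 70.7%, 78.7% and 82.9% in the RWA-SA1 libraries. By expected counts the top isoform of that gene was i4, of 16097 bases.

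The isoform that led was often not the same in every library. It was the same in all 6 libraries in 66 of the expressed genes (44.3%), against 48.0% of the next 150 genes and 67.5% of all genes with at least 2 isoforms. In 46 of the expressed genes 2 isoforms led and in 37 genes 3 or more did. As a measure over all isoforms, the share of a gene's TPM that lay on other isoforms in another library was calculated for each pair of libraries. Its median over the expressed genes was 15.2% to 18.2% between RWA-SAM libraries and 13.3% between RWA-SA1 replicates 2 and 3. Between the RWA-SAM libraries and RWA-SA1 replicates 2 and 3 it was 24.6% to 26.6%.

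RWA-SA1 replicate 1 was between these groups of libraries. Its isoform shares differed by 19.2% to 19.8% from the RWA-SAM libraries and by 21.7% to 22.1% from the other RWA-SA1 libraries. Gene by gene, its profile was nearer to the RWA-SAM mean than to the mean of the other RWA-SA1 libraries in 96 of the expressed genes (64.4%), in 75.3% of the next 150 genes and in 59.7% of the remaining genes with at least 2 isoforms. The order of the pairs was the same in the next 150 genes, with 14.2% to 14.6% between RWA-SAM libraries and 20.5% to 23.0% between RWA-SAM and RWA-SA1 replicates 2 and 3. In the remaining genes with at least 2 isoforms it was 6.11% to 6.64% and 10.3% to 11.2%.

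**Figure D3:**
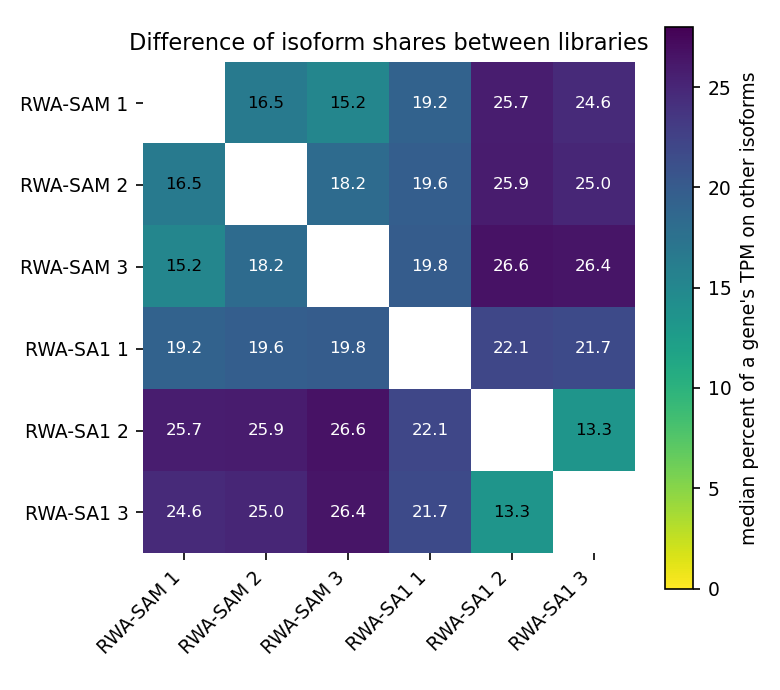
Median over the expressed genes of the percent of a gene's TPM that lies on other isoforms in the library of the column than in that of the row. Darker cells stand for larger differences. The smallest value, 13.3%, is that of RWA-SA1 replicates 2 and 3, and the largest, 24.6% to 26.6%, are those of the RWA-SAM libraries against these 2 libraries.

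Isoform usage passed a test between the biotypes in part of the genes. The edgeR test of isoform usage asks whether the isoforms of a gene changed unequally, apart from the level of the gene. It passed in 28 of the 148 genes tested (18.9%), against 8.27% of all 6785 genes tested and 22 of 148 of the next 150 genes (14.9%). At an unadjusted p under 0.05 there were 44 genes (29.7%, against 22.4% of all genes tested). The share that passed was larger in genes with more isoforms tested. Among other genes it was 4.41% with 2 isoforms tested, 13.2% with 5 to 8, 16.7% with 9 to 12 and 23.7% of 38 genes with 13 or more, and among the 150 genes it was 2 of 6 genes with 5 to 8 isoforms tested, 1 of 31 with 9 to 12 and 25 of 111 (22.5%) with 13 or more. Without RWA-SA1 replicate 1, 70 genes passed (47.0%, against 26.9% of all genes tested), with all of the 28 among them, while leaving out any other library kept 15 to 18 of the 28. In simulated counts this test called unchanged genes more often than its threshold allows. It also made no allowance for the uncertain division of shared reads among isoforms, so its p-values can be too small.

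Of the 28 genes, 13 (46.4%) had the same top isoform in all 6 libraries and 5 (17.9%) also passed the gene-level test. In the whole assembly, 559 genes with enough expression passed the usage test, and the shares among them were 56.4% and 15.9%. Effective numbers did not overlap between the biotypes in 14 of the 28 genes (50%), against 61.5% of the 559 genes. Among these 14, the RWA-SAM libraries were above in 6 and the RWA-SA1 libraries in 8. The 5 genes of lowest p were TRINITY_DN295_c0_g1, TRINITY_DN244_c1_g1, TRINITY_DN170_c0_g1, TRINITY_DN507_c0_g2 and TRINITY_DN844_c0_g1, which are described in turn.

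TRINITY_DN295_c0_g1 (22 isoforms, adjusted p = 1.75e-15) was led by isoform i22 in every library, while isoforms below it differed in share. Isoform i20 (3377 bases) held 19.6%, 18.5% and 19.5% of the gene in the RWA-SAM libraries and 9.93%, 7.42% and 6.16% in the RWA-SA1 libraries. Isoform i13 (4933 bases) held 11.4%, 12.2% and 11.8% in the RWA-SAM libraries and 15.5%, 20.9% and 20.1% in the RWA-SA1 libraries. Neither isoform overlapped between the biotypes. On the TPM scale i20 was at 22.7, 22.6 and 23.6 TPM in RWA-SAM and 13.6, 9.47 and 7.25 TPM in RWA-SA1.

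In TRINITY_DN244_c1_g1 (20 isoforms, adjusted p = 2.33e-08) the top isoform itself differed in share. Isoform i14 (3984 bases) held 49.6%, 47.2% and 45.8% of the gene in the RWA-SAM libraries and 40.6%, 32.9% and 33.5% in the RWA-SA1 libraries, at summed levels that overlapped. The effective number was 6.50, 6.33 and 7.59 in the RWA-SAM libraries and 7.70, 8.22 and 8.25 in the RWA-SA1 libraries, lower in every RWA-SAM library. With a count of 10 or more required in every library, this gene missed the threshold (adjusted p = 0.0583).

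TRINITY_DN170_c0_g1 (17 isoforms, adjusted p = 1.65e-07) showed RWA-SA1 replicate 1 with the RWA-SAM libraries. Its isoform i14 (2961 bases) held 17.8%, 17.0% and 17.8% of the gene in the RWA-SAM libraries and 12.5%, 2.40% and 3.67% in the RWA-SA1 libraries. The top isoform i11, of nearly the same length (2941 bases), held 33.6%, 36.4% and 33.3% in the RWA-SAM libraries and 36.2%, 50.9% and 51.3% in the RWA-SA1 libraries, with overlap. The gene's total was 118, 109 and 121 TPM in RWA-SAM and 118, 110 and 103 TPM in RWA-SA1.

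TRINITY_DN507_c0_g2 (21 isoforms, adjusted p = 6.05e-06) had 4 different top isoforms. Isoform i18 held 6.12%, 7.36% and 9.51% of the gene in the RWA-SAM libraries and 17.5%, 23.1% and 15.8% in the RWA-SA1 libraries, and isoform i13 held 5.90%, 4.30% and 7.63% against 13.9%, 21.9% and 16.6%. Both were lower in every RWA-SAM library. In TRINITY_DN844_c0_g1 (18 isoforms, adjusted p = 2.11e-05) isoform i12 of 1672 bases held 42.1%, 43.5% and 39.7% of the gene in the RWA-SAM libraries and 59.0%, 68.6% and 64.9% in the RWA-SA1 libraries. The longer isoform i10 (3581 bases) held 26.2%, 22.7% and 25.2% in the RWA-SAM libraries and 16.5%, 11.0% and 12.1% in the RWA-SA1 libraries. The total of this gene was near the same level throughout, at 53.9, 52.8 and 56.2 TPM in RWA-SAM and 55.9, 57.6 and 60.3 TPM in RWA-SA1. Its call was lost without RWA-SAM replicate 2 (adjusted p = 0.0591) and without a filter on low counts (adjusted p = 0.406).

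In 3 of the expressed genes (2.01%) the leading isoform was the same in all RWA-SAM libraries and a different one in all RWA-SA1 libraries, against 2.67% of the next 150 genes and 1.61% of all genes with at least 2 isoforms. In TRINITY_DN5136_c1_g1 (16 isoforms) isoform i10 (5165 bases) held 32.7%, 27.0% and 31.5% of the gene in the RWA-SAM libraries and 13.2%, 2.91% and 8.89% in the RWA-SA1 libraries, where i14 led with 20.2%, 25.5% and 27.0%, against 16.6%, 23.8% and 22.8% for i14 in the RWA-SAM libraries. Isoform i10 did not overlap between the biotypes, while i14 did. In TRINITY_DN27068_c0_g1 (21 isoforms) isoform i20 (2418 bases) held 31.4%, 31.2% and 36.5% in the RWA-SAM libraries and 18.9%, 5.05% and 5.03% in the RWA-SA1 libraries. Its isoform i12 (2098 bases) held 4.66%, 12.2% and 6.69% in the RWA-SAM libraries and 26.4%, 40.6% and 44.3% in the RWA-SA1 libraries. Neither isoform overlapped between the biotypes, and they differed in opposite directions. Usage passed the test in these 2 genes (adjusted p = 0.00101 in TRINITY_DN5136_c1_g1 and 0.00164 in TRINITY_DN27068_c0_g1).

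The remaining gene of this kind, TRINITY_DN557_c0_g1 (16 isoforms), did not pass the usage test (adjusted p = 0.0525). Isoform i7 (1597 bases) held 29.5%, 36.6% and 32.7% of it in the RWA-SAM libraries and 26.3%, 14.6% and 19.2% in the RWA-SA1 libraries. Isoform i16 (2777 bases) held 27.7%, 24.9% and 28.7% in the RWA-SAM libraries and 38.0%, 49.0% and 40.3% in the RWA-SA1 libraries. Neither isoform overlapped between the biotypes in share.

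**Figure D4:**
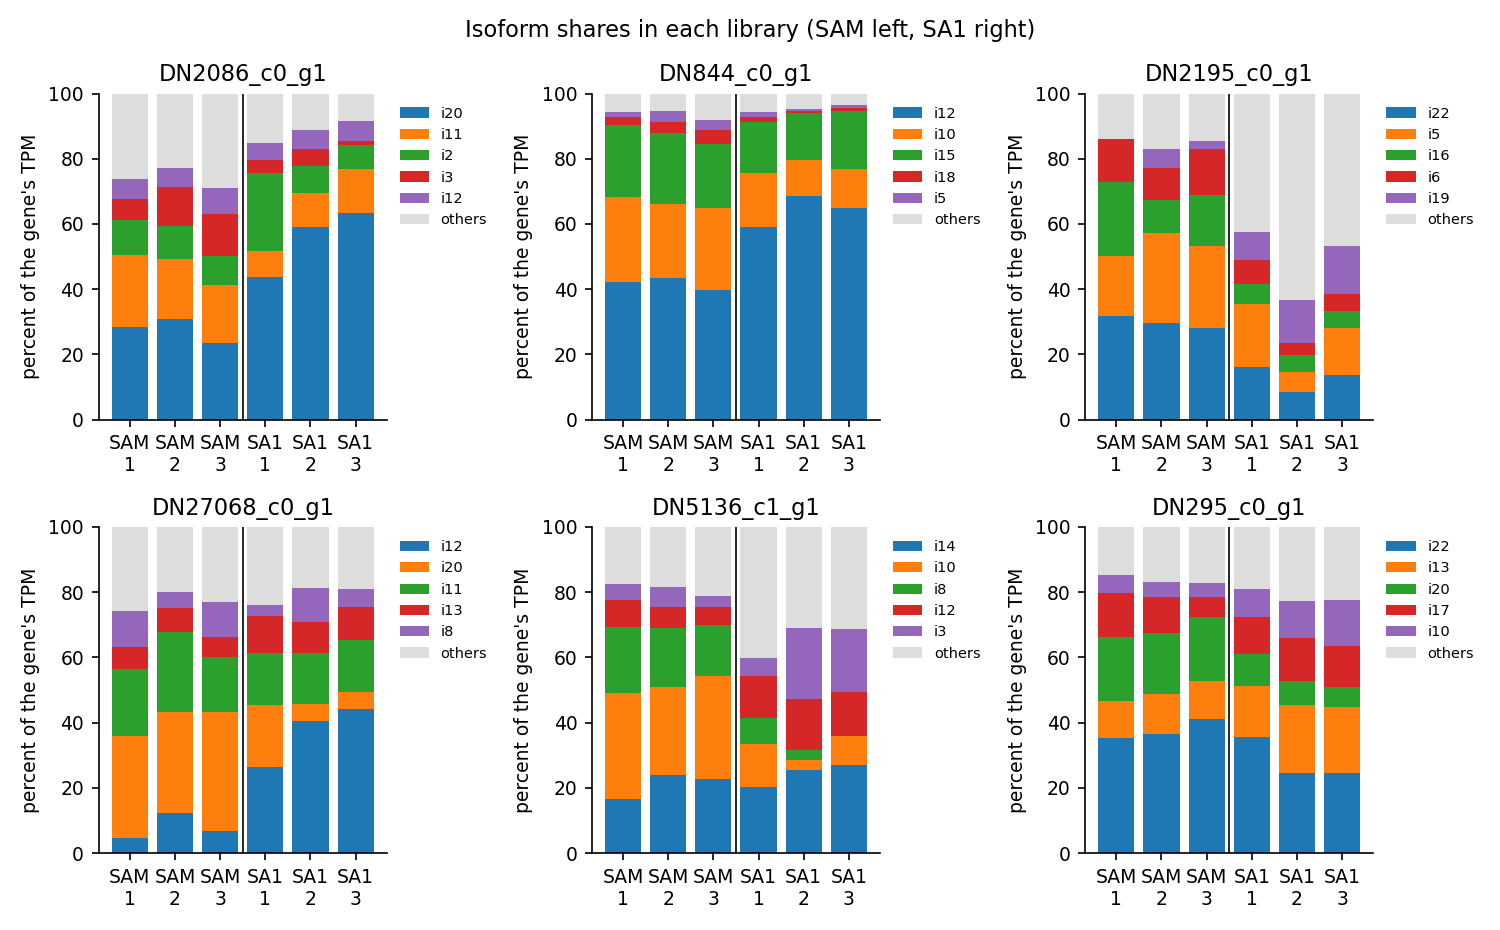
Stacked shares of the 5 leading isoforms (colours, numbered as in the identifiers) and of all others (grey) in percent of the gene's TPM, for 6 genes, with the RWA-SAM libraries left of the line and the RWA-SA1 libraries right of it. Isoform i12 of TRINITY_DN844_c0_g1 takes 39.7% to 43.5% in RWA-SAM and 59.0% to 68.6% in RWA-SA1, and the lead in TRINITY_DN27068_c0_g1 lies with i20 in RWA-SAM and with i12 in RWA-SA1.

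Isoform diversity per gene gave no call at the threshold. Of the expressed genes, 0 passed the limma test on the log2 effective number with Benjamini-Hochberg adjustment, as did 0 of the 7342 genes tested (0% higher and 0% lower in RWA-SAM), while 37 of the expressed genes had an unadjusted p under 0.05, of which 22 were higher in RWA-SAM (24.8%, against 1159 of all genes or 15.8%, of which 748 were higher). Without RWA-SA1 replicate 1, 17 of the expressed genes passed, 14 higher and 3 lower in RWA-SAM, against 6.28% of all genes tested. The biotypes did not overlap in 22 genes with RWA-SAM above (14.8%, against 14.0% of all genes tested) and in 18 genes with RWA-SA1 above (12.1%, against 7.95%). For the share of the top isoform they did not overlap in 15 genes with RWA-SAM above (10.1%, against 9.14%) and in 18 genes with RWA-SA1 above (12.1%, against 14.4%). In the next 150 genes, effective numbers did not overlap in 8.67% with RWA-SAM above and in 13.3% with RWA-SA1 above, so the share with RWA-SA1 above was no larger in the expressed genes than in the genes next in rank.

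The 4 genes with the largest differences in each direction without overlap were chosen for that difference and are given as a description. TRINITY_DN2086_c0_g1 (19 isoforms) had effective numbers of 7.78, 7.32 and 8.61 in the RWA-SAM libraries and 5.23, 4.01 and 3.44 in the RWA-SA1 libraries, a log2 difference of 0.92 (SE 0.17). Its isoform i20 (3422 bases) held 28.6%, 30.9% and 23.6% in the RWA-SAM libraries and 43.7%, 59.1% and 63.5% in the RWA-SA1 libraries, although the level of i20 was lower in RWA-SAM (3.55, 3.53 and 3.47 TPM against 4.40, 5.21 and 5.27 TPM) and that of the gene was higher. The other isoforms together were thus higher in RWA-SAM. TRINITY_DN1568_c0_g1 (23 isoforms) had 11.07, 10.02 and 10.05 effective isoforms in the RWA-SAM libraries and 7.07, 4.92 and 5.38 in the RWA-SA1 libraries. Its isoform i18 (2566 bases) held 3.79%, 5.58% and 5.69% in the RWA-SAM libraries and 9.81%, 26.4% and 23.6% in the RWA-SA1 libraries. In TRINITY_DN468_c0_g1 (16 isoforms) the effective number was 6.14, 6.10 and 6.08 in the RWA-SAM libraries and 4.95, 2.93 and 3.61 in the RWA-SA1 libraries, and in TRINITY_DN844_c0_g1 it was 4.38, 4.63 and 5.28 against 3.76, 2.99 and 3.07.

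Lower effective numbers in RWA-SAM were largest in TRINITY_DN2195_c0_g1 (21 isoforms, 4490 to 5230 bases), with 5.63, 6.78 and 7.14 in the RWA-SAM libraries and 12.1, 13.0 and 12.0 in the RWA-SA1 libraries. Its log2 difference was -0.93 (SE 0.10, adjusted p = 0.0709, the lowest of the expressed genes), and RWA-SA1 replicate 1 lay with its own biotype in this gene. Isoform i22 held 31.8%, 29.8% and 28.1% in the RWA-SAM libraries and 16.1%, 8.45% and 13.6% in the RWA-SA1 libraries. TRINITY_DN1182_c0_g1 (17 isoforms) had 8.56, 6.04 and 7.32 effective isoforms in the RWA-SAM libraries and 9.91, 10.2 and 9.60 in the RWA-SA1 libraries. TRINITY_DN466_c0_g1 (17 isoforms) had 7.02, 6.02 and 7.47 in the RWA-SAM libraries and 10.4, 7.99 and 9.63 in the RWA-SA1 libraries. In TRINITY_DN466_c0_g1, isoform i7 of 783 bases held 4.31%, 19.6% and 16.8% in the RWA-SAM libraries and 12.4%, 31.5% and 28.1% in the RWA-SA1 libraries, with overlap. TRINITY_DN2279_c0_g1 (16 isoforms) had 6.55, 7.22 and 6.01 in the RWA-SAM libraries and 7.97, 9.07 and 9.24 in the RWA-SA1 libraries, with the usage of its isoforms past the threshold (adjusted p = 0.00423).

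At the level of whole genes, 26 of the expressed genes passed the edgeR test, 3 higher and 23 lower in RWA-SAM. Of all 16358 genes tested, 3.95% were higher and 5.56% lower in RWA-SAM. The median log2 fold change was -0.18 in the expressed genes and 0.01 in all genes, and it was below 0 in 118 of the expressed genes (79.2%), against 48.6% of all genes. In the next 150 genes 1 passed as higher and 13 as lower, with a median of -0.14 and 69.3% below 0. Among other genes with at least 2 isoforms and a longest isoform of 2000 bases or more, 97 passed as higher and 470 as lower. Of those genes 65.8% were below 0, so the lean to lower values was not particular to the 150 genes. Leaving out any library other than RWA-SA1 replicate 1 left 0 of the expressed genes past the threshold, with 52 to 61 at an unadjusted p under 0.05. The same runs left 0 of all genes past it, with 3902 to 5037 at an unadjusted p under 0.05. Without RWA-SA1 replicate 1, 100 of the expressed genes passed, 16 higher and 84 lower in RWA-SAM. Over all genes, 50.3% passed without that library, 4507 higher and 4369 lower in RWA-SAM.

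The direction went with length, and the sign of the median went with the scale, while the expressed genes stayed below all genes on both scales. Genes with a longest isoform over 4000 bases had a median log2 fold change of -0.27 among the 150 genes and of -0.23 among other genes, and those with one of over 2000 and up to 4000 bases had -0.10 and -0.09. Spearman's rho between the longest isoform and the log2 fold change was -0.43 in the expressed genes and -0.38 in all genes tested. On log2(TPM + 1), which allows for the length of each isoform, the median difference was 0.01 in the expressed genes and 0.17 in all genes, 0 of the expressed genes passed as higher and 1 as lower in RWA-SAM, and 740 and 196 of all genes did so, against 646 and 910 in the main test. The trend with length remained on that scale. Its median in other genes was 0.51 for a longest isoform of up to 500 bases and -0.02 for one over 4000 bases. Among the 150 genes it was 0.06 for over 2000 and up to 4000 bases and -0.06 for over 4000 bases. In edgeR with an offset for the mean isoform length, added after seeing the data, the median was -0.18 in the expressed genes and 0.02 in all genes. For transcripts of 2000 bases or more, the deposited length exceeded the effective length by 167.1 to 180.9 bases in the RWA-SAM libraries and by 152.7 to 169.9 bases in the RWA-SA1 libraries, and the part of this difference in the result was not tested. Of the 26 genes, 3 had higher TPM in every RWA-SAM library, 17 had higher TPM in every RWA-SA1 library and 6 (23.1%) overlapped, against 7.97% with overlap among all 1556 genes that passed.

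The gene with the largest difference was TRINITY_DN843_c1_g1, which has 16 isoforms and the lowest effective number. It was at 977, 1037 and 983 TPM in RWA-SAM and at 1883, 1958 and 1783 TPM in RWA-SA1, and here RWA-SA1 replicate 1 lay with its biotype. The log2 fold change was -1.12 (SE 0.10, adjusted p = 0.0224), and -1.20 without RWA-SA1 replicate 1. Its isoform i11 (966 bases) held 78.3%, 74.1% and 76.3% of the gene in the RWA-SAM libraries and 74.0%, 70.2% and 71.4% in the RWA-SA1 libraries. It was the 1 expressed gene that also passed on log2(TPM + 1), with an adjusted p of 0.0301.

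The 3 genes higher in RWA-SAM were TRINITY_DN64_c0_g1, TRINITY_DN6023_c0_g1 and TRINITY_DN2086_c0_g1. TRINITY_DN64_c0_g1 (17 isoforms) was at 79.9, 67.4 and 99.95 TPM in RWA-SAM and at 57.9, 30.0 and 39.1 TPM in RWA-SA1 (log2 fold change 0.90, SE 0.17, adjusted p = 0.0361). Its effective number overlapped between the biotypes, at 9.47, 9.72 and 9.68 in the RWA-SAM libraries and 9.89, 8.41 and 9.46 in the RWA-SA1 libraries. TRINITY_DN6023_c0_g1 (17 isoforms) was at 29.5, 27.1 and 31.5 TPM in RWA-SAM and at 22.1, 15.4 and 17.1 TPM in RWA-SA1 (log2 fold change 0.50, SE 0.08, adjusted p = 0.0326). Isoforms at 1 TPM or more numbered 7, 7 and 9 in the RWA-SAM libraries and 5, 2 and 3 in the RWA-SA1 libraries. A fixed minimum of 1 TPM also depends on the level of the gene, and the part of the level was not tested. TRINITY_DN2086_c0_g1 was at 12.4, 11.4 and 14.7 TPM in RWA-SAM and at 10.1, 8.81 and 8.30 TPM in RWA-SA1 (log2 fold change 0.46, SE 0.11, adjusted p = 0.0442). In each of the 3 genes every RWA-SAM library was above every RWA-SA1 library, and RWA-SA1 replicate 1 was the RWA-SA1 library nearest to RWA-SAM. With an offset for the mean isoform length, added after seeing the data, TRINITY_DN64_c0_g1 (adjusted p = 0.0530) and TRINITY_DN2086_c0_g1 (adjusted p = 0.0614) missed the threshold, and TRINITY_DN6023_c0_g1 passed (adjusted p = 0.0386).

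After TRINITY_DN843_c1_g1, the genes furthest below in RWA-SAM were TRINITY_DN507_c0_g2, TRINITY_DN812_c1_g1, TRINITY_DN1184_c0_g1 and TRINITY_DN960_c0_g1. TRINITY_DN507_c0_g2 was at 32.2, 30.7 and 29.4 TPM in RWA-SAM and at 35.8, 45.5 and 49.8 TPM in RWA-SA1 (log2 fold change -0.84, SE 0.18, adjusted p = 0.0417). TRINITY_DN960_c0_g1 was at 31.4, 27.9 and 27.8 TPM in RWA-SAM and at 36.4, 42.7 and 33.8 TPM in RWA-SA1 (log2 fold change -0.63, SE 0.11, adjusted p = 0.0350). Both were lower in every RWA-SAM library. TRINITY_DN812_c1_g1 (21 isoforms) was at 20.3, 18.3 and 19.6 TPM in RWA-SAM and at 22.0, 24.2 and 23.9 TPM in RWA-SA1, a smaller difference than its log2 fold change of -0.84 in counts (SE 0.12, adjusted p = 0.0283). Its isoform i5 of 806 bases held 32.0%, 10.7% and 12.6% of the gene in the RWA-SAM libraries and 10.1%, 0.993% and 3.10% in the RWA-SA1 libraries, so the mean length of its expressed isoforms differed, and with an offset for that length, added after seeing the data, the log2 fold change was -0.47. TRINITY_DN1184_c0_g1 passed in counts (log2 fold change -0.78, SE 0.11, adjusted p = 0.0283) but overlapped in TPM, at 157, 148 and 147 TPM in RWA-SAM and 154, 199 and 243 TPM in RWA-SA1, and it missed the threshold with the length offset (adjusted p = 0.0848).

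**Figure D5:**
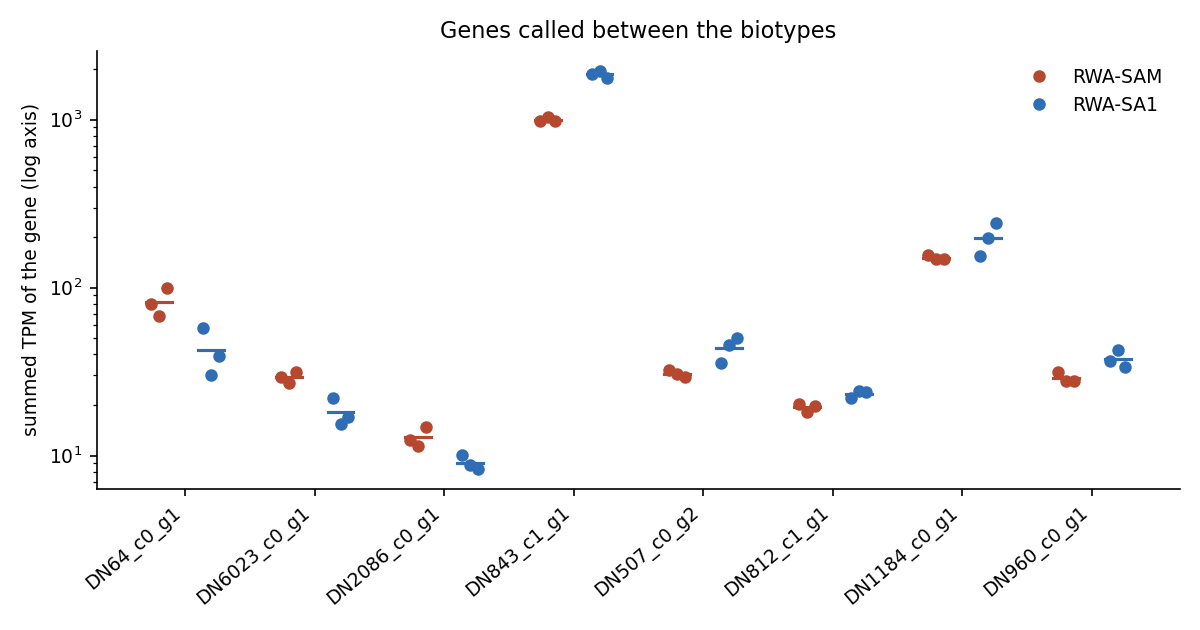
Summed TPM per library (points, log axis) and group mean (lines) of the 8 named genes that passed the gene-level test, RWA-SAM left of RWA-SA1 in each gene. The first 3 genes are higher in every RWA-SAM library, TRINITY_DN1184_c0_g1 overlaps, and TRINITY_DN843_c1_g1 lies at 977 to 1037 TPM in RWA-SAM and 1783 to 1958 TPM in RWA-SA1.

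For separate isoforms, 0 of the 2189 isoforms of the 150 genes passed the edgeR test with all 6 libraries, as did 0 of all 36184 transcripts tested (0% higher and 0% lower in RWA-SAM), while 426 (19.5%) and 7510 (20.8%) had an unadjusted p under 0.05. Without RWA-SA1 replicate 1, 360 of the isoforms of these genes passed, 145 higher and 215 lower in RWA-SAM (15.3%, against 18.8% of all transcripts tested). DESeq2 called 283 isoforms of these genes with all 6 libraries (12.9%, against 12.5% of all transcripts). Some isoforms had RWA-SA1 replicate 1 apart from RWA-SA1 replicates 2 and 3, as in 2 genes picked after their values were seen. In TRINITY_DN300_c0_g1, isoform i3 was at 16.4, 21.5 and 21.1 TPM in RWA-SAM and at 15.2, 0.01 and 0 TPM in RWA-SA1, and isoform i9 was at 0, 0 and 0 TPM in RWA-SAM and at 0, 16.0 and 27.9 TPM in RWA-SA1. In TRINITY_DN4724_c0_g1, isoform i4 was at 25.5, 23.9 and 29.4 TPM in RWA-SAM and at 9.85, 0 and 0 TPM in RWA-SA1. Isoform usage of TRINITY_DN300_c0_g1 had an adjusted p of 0.807 with all libraries and of 6.67e-19 without RWA-SA1 replicate 1.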

How the data were processed

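RNA of pooled whole aphids was sequenced in 3 libraries of RWA-SAM and 3 of RWA-SA1, with group and replicate number taken from the titles. Quality control with FastQC, trimming with Trimmomatic 0.39 and quantification with RSEM are listed in the submitters' processing notes, and the sources used here give no aligner. The deposited expected counts, the deposited TPM and the deposited percent of each isoform within its gene were made by the authors with RSEM for each library against the de novo assembly. Of the deposited percents, 99.9% lie within 0.5 percentage points of the shares of TPM used here. Libraries held 32294116 to 47619238 expected counts, which sets the precision.

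Expected counts, summed per gene for the gene test, were then rounded to whole numbers and passed to edgeR 4.0.16 (R 4.3.3, TMM, filterByExpr, quasi-likelihood test). Isoform usage was tested with diffSpliceDGE, whose genes need 2 or more isoforms left. The log2 effective number was tested with limma 3.58.1 in genes with a summed TPM of 1 or more in every library. All tests were two-sided, fitted over the whole table and adjusted by Benjamini-Hochberg, with a threshold of 0.05. No p was calculated for summaries over the chosen genes. The procedure was tested on simulated data. DESeq2 1.42.0, RLE scaling, other filters, limma on log2(TPM + 1) and log2(TPM + 0.1), limma diffSplice on voom values, other TPM minimums, other diversity measures, a replicate block and leaving out each library were alternatives.

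The named genes are the 8 with most isoforms, the 5 most abundant, the 4 with highest and the 4 with lowest effective number, the 5 of lowest p for usage, the 4 of largest diversity difference in each direction without overlap, up to 5 of largest fold change in each direction past the threshold, up to 3 with a switch of leading isoform, and the ranks next to the limit. The members and these lists were chosen with earlier results of these data known.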

Additional observations from a re-analysis of the deposited data

How the results depend on the processing

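The differences between the biotypes in isoforms at 1 TPM, top share and effective number moved by less than the SD of the RWA-SA1 libraries under every alternative run. Without RWA-SA1 replicate 1 all 3 moved by more than the smaller SD of the RWA-SAM libraries, as did the isoforms counted at 0.1, 2 and 5 TPM, with a change of sign at 0.1 and 5 TPM, and those without RWA-SA1 replicate 2 or 3. Among the named genes, no gene-level fold change of the 8 past the threshold and no diversity difference of the 8 chosen for it turned its direction. The log2 differences of effective number of TRINITY_DN960_c0_g1, TRINITY_DN255_c0_g1, TRINITY_DN1131_c0_g1, TRINITY_DN557_c0_g1 and TRINITY_DN1280_c0_g1, which were far from the threshold (adjusted p of 0.657 to 0.989), changed sign without RWA-SA1 replicate 1, at 0.0032, 0.0048, 0.018, 0.070 and -0.043. The numbers of the 150 genes past a threshold were less stable. For gene expression the count of 26 became 11 without a filter on low counts, 60 with DESeq2, 1 with limma on log2(TPM + 1), 1 with limma on log2(TPM + 0.1) and 20 with an offset for isoform length, an alternative chosen after seeing the data, in which 17 of the 26 genes passed. Over all genes the count of 1556 became 578 without a filter, 3921 with DESeq2, 936 on log2(TPM + 1), 38 on log2(TPM + 0.1) and 8876 without RWA-SA1 replicate 1. For isoform expression the count of 0 became 9 with at least 10 counts in every library, 283 with DESeq2, 18 with limma on log2(TPM + 1) and 18 on log2(TPM + 0.1); over all transcripts these were 71, 4531, 99 and 96, and 7290 without RWA-SA1 replicate 1. For isoform usage the count of 28 became 46 with at least 10 counts in every library and 44 with limma on voom values, in which 18 and 23 of the 28 genes passed; over all genes 561 became 955 and 897, and 1898 without RWA-SA1 replicate 1. For isoform diversity the count of 0 became 1 with a summed TPM above 0 in every library, and over all genes 64, against 10 at a summed TPM of 5 or more and 461 without RWA-SA1 replicate 1. Leaving out each library in turn gave 0 to 100 genes for gene expression, 0 to 360 isoforms, 18 to 70 genes for usage and 0 to 17 genes for diversity, with the highest value in each case without RWA-SA1 replicate 1. The causes were not tested.

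Whether the replicate numbers pair the libraries is not known. The deviations of libraries with the same number correlated at -0.13, 0.14 and -0.24, and those with different numbers at -0.20 to 0.28. So few libraries cannot show whether a number marks a shared preparation. With the replicate number as a block, 0 genes passed for expression, 0 isoforms, 20 genes for usage (18 of the 28, and 225 over all genes) and 0 genes for diversity. Over the whole assembly the block likewise gave 0 genes for expression, 0 isoforms and 0 genes for diversity. The 2 deepest libraries, RWA-SA1 replicates 2 and 3, had the fewest isoforms at 1 TPM. They also had the fewest at 10 or more expected counts after scaling every library to the smallest total. These numbers were 2010, 1986 and 2014 in RWA-SAM and 2029, 1885 and 1944 in RWA-SA1, a difference of the means of 50.7. Beyond this the effect of depth was not tested.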

Other observations

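Of the 2933 isoforms, 24 were at 0 in some library and at 10 TPM or more in another, against 9 of 2060 in the next 150 genes and 326 of all 90781 transcripts. Libraries of the same biotype could differ in this way. In TRINITY_DN13104_c0_g1, isoform i1 (1910 bases) was at 8.51, 0 and 15.96 TPM in RWA-SAM and at 4.72, 13.61 and 14.5 TPM in RWA-SA1, while isoform i9 (1924 bases) was at 8.75, 9.84 and 0 TPM in RWA-SAM and at 0, 2.70 and 12.05 TPM in RWA-SA1. In TRINITY_DN1183_c0_g1, isoform i10 (2040 bases) was at 14.95, 0.79 and 5.79 TPM in RWA-SAM and at 0, 0 and 9.46 TPM in RWA-SA1. These isoforms were picked after their values were seen.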
